A study of Homo sapiens and Mus musculus with 12 samples.

Results

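CISH, SOCS1, SOCS2 and SOCS3 are the inhibitors of cytokine signalling that cytokines themselves switch on, and their levels were examined in mouse NK cells lacking Ehmt2 and in human NK cells treated with an EHMT2 inhibitor. The members were taken by symbol, Cish, Socs1, Socs2 and Socs3 in the mouse count table and CISH, SOCS1, SOCS2 and SOCS3 in the human one. This gave 8 genes of 40325 listed in both tables, and 7 of the 8 had enough counts to be tested. EHMT2, also known as G9a, is the histone methyltransferase that places H3K9me2, a repressive mark of chromatin.

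RNA-seq was performed on sorted splenic NK cells of mice aged 8 to 12 weeks and on NK92MI cells, with 3 libraries per group and 12 in all. KO mice were Ehmt2 flox/flox; Ncr1-iCre animals, in which the Ncr1 locus, encoding the activating receptor NKp46, drives Cre, so that deletion follows the onset of Ncr1 expression. WT mice were Ehmt2 flox/flox without Cre, so both groups carried the floxed allele, and iCre was present in KO only, and all mice were on the C57BL/6J background. The counts per gene do not show whether reads of Ehmt2 in KO fall outside the deleted part. The sample titles name EHMT2 as the deleted gene, while the genotype label of the KO samples reads Ezh2-KO. NK92MI is an established human NK lymphoma line made independent of added IL-2 by an introduced IL2 gene. It was treated with BIX-01294, an inhibitor of EHMT2 and of its close relative EHMT1, or with DMSO as vehicle. The cell line assays of the study used 0.25 µM for 5 days, and the dose and time of the RNA-seq cultures were not given separately. The labels number the replicates without saying whether they are separate animals or cultures, so p-values measure only the spread between these samples.

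Cytokines such as IL-2, IL-15 and IFN-γ bind receptors that carry JAK kinases, and JAKs phosphorylate STAT factors, which enter the nucleus and switch on their targets. CISH and SOCS genes are among these targets, and their proteins bind the receptors or the JAKs through an SH2 domain and recruit a ubiquitin ligase through the SOCS box, which closes a negative feedback loop. In NK cells CISH is known as a checkpoint of IL-15 signalling, SOCS1 chiefly restrains IFN-γ and common γ chain signals, SOCS2 is best known for growth hormone signalling, and SOCS3 restrains receptors that use gp130.

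Human promoter sequences of CISH and SOCS1 are shown for the STAT and interferon motifs they hold. They cover the 250 bases before the transcription start in RefSeq (GRCh38.p14), each written 5′ to 3′ on the gene's own, minus strand. The CISH window lies at chr3:50611775-50612024 and the SOCS1 window at chr16:11256205-11256454. Capitals mark the motif TTCNNNGAA, the palindrome that STAT5 and other STAT dimers recognise, in CISH. In SOCS1 they mark a core of the interferon response element, GAAA followed by any 2 bases and another GAAA.
CISH: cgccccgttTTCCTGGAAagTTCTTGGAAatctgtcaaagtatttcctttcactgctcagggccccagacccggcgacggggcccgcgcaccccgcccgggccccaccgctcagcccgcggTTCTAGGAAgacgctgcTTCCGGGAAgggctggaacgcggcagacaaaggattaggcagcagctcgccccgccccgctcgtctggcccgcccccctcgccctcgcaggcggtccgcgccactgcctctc
SOCS1: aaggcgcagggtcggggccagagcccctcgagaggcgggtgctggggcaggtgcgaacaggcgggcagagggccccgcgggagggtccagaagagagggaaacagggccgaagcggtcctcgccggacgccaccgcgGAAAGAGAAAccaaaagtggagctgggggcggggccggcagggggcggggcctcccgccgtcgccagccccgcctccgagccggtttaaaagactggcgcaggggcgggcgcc

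The CISH window held 4 matches to TTCNNNGAA. They are TTCCTGGAA (241 to 233 bases upstream), TTCTTGGAA (230 to 222), TTCTAGGAA (129 to 121) and TTCCGGGAA (112 to 104), and so form a distal and a proximal pair. Of 35116 promoter windows of the same length, 6.57% held at least 1 match on either strand, and 0.0142% (5 windows) held at least 4. The SOCS1 window held no TTCNNNGAA and 1 interferon response core (GAAAGAGAAA, 113 to 104 bases upstream). At least 1 such core on either strand was held by 3.02% of windows. Both windows of SOCS3 held neither motif, which says only that these letters are not in those windows. SOCS2 and the mouse promoters were not analysed here. A match describes the sequence and does not show that a factor binds there.

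Library totals lay between 25891680 and 37438868 counts in mouse and between 16579469 and 17165446 in human, and the biological coefficient of variation was 18.2% and 7.55%. Levels are given as CPM, counts scaled to a common library size after TMM normalization. Each species was fitted on its own with edgeR's quasi-likelihood test, over 13189 mouse and 12727 human genes, with Benjamini-Hochberg adjustment over all genes tested. A gene was called where the adjusted p was under 0.05 and the log2 fold change beyond 0.5 in either direction. For single genes, 3 libraries against 3 cannot give an exact permutation p under 0.1. The targeted gene was lower in both comparisons. Ehmt2 was at 171, 143 and 137 CPM in KO and at 275, 284 and 285 CPM in WT (log2 fold change −0.91, adjusted p = 0.0162 by edgeR), and Ezh2, the gene of the genotype label, was not called (−0.23, adjusted p = 0.116 by edgeR). EHMT2 was at 40.4, 39.3 and 35.8 CPM with BIX-01294 and at 57.1, 61.6 and 54.3 CPM with DMSO (−0.58, adjusted p = 0.000101 by edgeR).

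In the spleen, Cish and Socs1 were higher in KO than in WT NK cells, by a similar amount, whereas Socs2 and Socs3 did not pass the test. Thus 2 of the 4 mouse members were called higher, against 2.82% of all genes tested. None was called lower, against 6.69% of genes. The same 2 members were those whose KO libraries all lay above the WT libraries, which held for 19.1% of genes.

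Cish, at chr9:107296026-107302784 (GRCm38, plus strand), was counted at 32.3, 27.3 and 26.3 CPM in KO replicates 1 to 3 and at 15.1, 13.9 and 12.4 CPM in WT replicates 1 to 3. The lowest KO library was well above the highest WT library, and the groups did not overlap. KO averaged 28.6 ± 3.19 CPM (SD, n = 3), against a WT average of 13.8 ± 1.34 CPM (SD, n = 3). Cish rose by 1.05 on the log2 scale (standard error 0.13, 95% interval 0.76 to 1.35, adjusted p = 0.0181 by edgeR), a 2.08-fold difference. Raw counts of 959 to 1186 in KO and 358 to 558 in WT stand behind these values. In the annotation the Cish exons share bases with Gm17040 and Gm17041 on the opposite strand, and the strand setting of the counting was not given in the sources used here, so reads of these transcripts cannot be told apart from those of Cish.

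Socs1, at chr16:10782240-10785536 (minus strand), was counted at 57.4, 54.7 and 40.6 CPM in KO and at 25.1, 29.8 and 24.2 CPM in WT. KO replicate 3 was the lowest of its group and still above every WT library. The means were 50.9 ± 9.01 CPM (SD, n = 3) and 26.3 ± 3.02 CPM (SD, n = 3). Socs1 rose by 0.95 on the log2 scale (standard error 0.15, 95% interval 0.60 to 1.30, adjusted p = 0.0269 by edgeR), or 1.93-fold.

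Both calls were lost when certain libraries were left out. Without 1 library at a time, Cish stayed between 0.95 and 1.12 on the log2 scale but its adjusted p by edgeR was 0.0986 without KO replicate 2, 0.121 without KO replicate 3 and 0.0714 without WT replicate 3. Socs1 stayed between 0.85 and 1.09, with an adjusted p by edgeR of 0.121 without KO replicate 2, 0.117 without KO replicate 3, 0.0699 without WT replicate 1 and 0.106 without WT replicate 3.

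**Figure D1:**
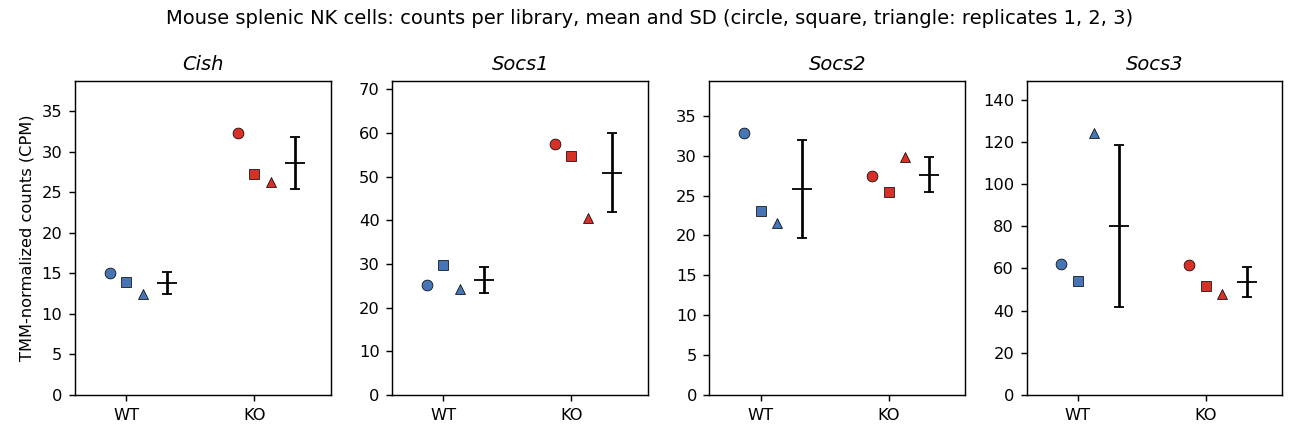
TMM-normalized counts (CPM, linear axes from 0) of the 4 mouse members in each WT and KO library, with the group mean and SD (n = 3) beside the points. All KO points of Cish and Socs1 lie above all WT points, Socs2 overlaps, and WT replicate 3 stands apart for Socs3 at 124 CPM.

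Socs2, at chr10:95385362-95417180 (minus strand), was counted at 27.5, 25.5 and 29.8 CPM in KO and at 32.8, 23.1 and 21.5 CPM in WT. WT replicate 1 was the highest of all 6 libraries, and the groups overlapped. The estimate was a log2 fold change of 0.10 (adjusted p = 0.702, edgeR), whose 95% interval of −0.29 to 0.48 leaves room for modest differences in either direction.

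Socs3, at chr11:117966079-117970047 (minus strand), was counted at 61.5, 51.5 and 47.7 CPM in KO and at 61.9, 53.8 and 124 CPM in WT. The groups overlapped, and WT replicate 3, with a raw count of 4624, was far above the other 5 libraries. The log2 fold change of −0.58 (standard error 0.30, 95% interval −1.27 to 0.11, adjusted p = 0.199 by edgeR) rested on that library. It was −0.12 (adjusted p = 0.618 by edgeR) without WT replicate 3. The summed markers of B cells and of neutrophils were also highest in WT replicate 3, at 1310 CPM and 1500 CPM, against 426 to 716 CPM and 186 to 465 CPM in the other WT libraries, and their part in the Socs3 value was not tested.

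Levels of different genes were set side by side after division by the summed exon length. This length pools the exons of all annotated transcripts and can exceed that of the transcripts present. It was 6419 bases for Cish, most of the span of the gene, 2908 for Socs1, 9531 for Socs2 and 2891 for Socs3. Ranks and shares on this scale therefore depend on the annotation. In WT NK cells, Socs3 was the highest member at 27.7 ± 13.3 CPM per kb (SD, n = 3), followed by Socs1 at 9.06 ± 1.04, Socs2 at 2.71 ± 0.642 and Cish at 2.15 ± 0.209 CPM per kb. In every WT library Socs3 was above Socs1 and Socs2 above Cish, but the ranges of Socs2 and Cish over the libraries overlapped, and those of Socs3 and Socs1 did not. In KO NK cells, Socs3 at 18.5 ± 2.46 and Socs1 at 17.5 ± 3.1 CPM per kb overlapped, and Cish at 4.46 ± 0.497 CPM per kb lay above Socs2 at 2.9 ± 0.228 CPM per kb in every library. On this scale, Socs1 made up 37.0% to 43.2% of the summed level of the 4 members in KO and 15.0% to 30.6% in WT. Cish made up 9.77% to 10.9% in KO and 3.48% to 6.55% in WT.

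The mouse libraries differed in their content of NK cell transcripts, which, like Cish and Socs1, was higher in KO than in WT. Within each genotype, Cish was highest in WT replicate 1 and KO replicate 1, the libraries with the lowest pan-NK sums. Socs1 was also highest in KO replicate 1, but in WT it was highest in replicate 2, the library with the highest pan-NK sum. The part of this content in the values of Cish and Socs1 was not tested. The summed level of 12 pan-NK genes, such as Ncr1, Nkg7 and Prf1, was 10800, 12500 and 12400 CPM in KO and 5610, 9530 and 5880 CPM in WT. All 12 had estimates above 0, and 7 were called higher and none lower, beside 2.82% and 6.69% of all genes. The median log2 fold change was 0.79, against 0.01 over all genes tested. Markers of macrophages and monocytes ran the other way, at 1340 to 2400 CPM in KO and 2480 to 6270 CPM in WT. Of these, 10 of 10 estimates were below 0 and 7 were called lower, beside 6.69% of all genes. Summed markers were 32.8 to 393 CPM in KO and 426 to 1310 CPM in WT for B cells (8 of 8 below 0), 41.4 to 205 and 186 to 1500 CPM for neutrophils (7 of 7 tested), 93.5 to 207 and 148 to 246 CPM for T cells (5 of 7), 1180 to 1430 and 1120 to 1460 CPM for dendritic cells (7 of 8), and 99.9 to 132 and 221 to 367 CPM for erythroid cells (8 of 8). No marker of these lists that was counted had 0 counts in all libraries. In bulk samples, fewer cells of a type and less RNA per cell cannot be told apart.

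Of the pan-NK genes, Il2rb, Tbx21 and Prf1 were reported by the study as higher in KO NK cells by RT-qPCR. Their summed share can thus reflect NK cell content as well as a response to the knockout, and the 2 cannot be told apart here. Divided by the share of counts from pan-NK genes, the members looked different. Cish came to 29.6, 22.0 and 21.2 CPM per 1% of pan-NK counts in KO and 26.8, 14.6 and 21.1 in WT, and the groups now overlapped. Socs1 came to 52.6, 44.1 and 32.7 in KO and 44.7, 31.4 and 41.1 in WT on the same scale, again with overlap. When libraries were scaled to the pan-NK genes in the edgeR fit, the log2 fold change was 0.23 for Cish (adjusted p = 0.489) and 0.15 for Socs1 (adjusted p = 0.63). That scaling moved the median of all genes to −0.82. It shifts all genes of a library together, so values relative to the median gene return by construction to about those of the TMM fit. They were 1.05 for Cish and 0.97 for Socs1, against 1.04 and 0.94 with TMM, and do not bear on NK cell content. Under the pan-NK scaling Socs2 was at −0.77 (adjusted p = 0.0384 by edgeR) and Socs3 at −1.47 (adjusted p = 0.00347 by edgeR), or 0.05 and −0.65 relative to the median gene.

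In NK92MI cells, none of the members passed the call with BIX-01294. That is 0 of 3 tested, against 14.9% of all genes called in either direction, 7.57% higher and 7.34% lower. CISH was slightly lower in every treated library, SOCS1 and SOCS2 overlapped between the groups, and SOCS3 was close to the limit of detection. The cells carried pan-NK genes at a summed 4870 to 5940 CPM with BIX-01294 and 4380 to 4750 CPM with DMSO. Of 11 tested genes, 3 were called higher and none lower, beside 7.57% and 7.34% of all genes. Judged by the adjusted p alone, 6 of the 11 were higher and 4 lower, beside 18.4% of all genes in each direction. Summed markers of macrophages and monocytes were at 9.17 to 10.8 CPM with BIX-01294 and 3.68 to 5.12 CPM with DMSO, those of B cells at 28.6 to 32.3 and 17.5 to 20.1 CPM, of neutrophils and of erythroid cells under 3 CPM in all libraries, of T cells at 95.2 to 113 and 101 to 105 CPM, and of dendritic cells at 247 to 303 and 272 to 302 CPM.

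CISH, at chr3:50606489-50611774 (GRCh38, minus strand), was the most abundant member, at 257, 235 and 271 CPM with BIX-01294 and 303, 304 and 303 CPM with DMSO. The DMSO libraries were almost identical, and all 3 treated libraries lay below them, which 23.9% of genes also showed. The means were 254 ± 18.0 CPM (SD, n = 3) and 303 ± 0.717 CPM (SD, n = 3). On the log2 scale the difference was −0.25 (standard error 0.07, 95% interval −0.39 to −0.11, adjusted p = 0.00791 by edgeR), short of the limit of 0.5 on size. An adjusted p under 0.05 with a lower level and no limit on size was reached by 18.4% of genes. CISH shares 218 exon bases with MAPKAPK3 on the opposite strand, which was at 94.5 to 104 CPM with BIX-01294 and 116 to 131 CPM with DMSO (log2 fold change −0.33, adjusted p = 0.00246 by edgeR). Without the strand setting, reads from the shared bases cannot be told apart.

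SOCS2, at chr12:93569814-93583487 (plus strand), was counted at 71.3, 61.5 and 69.5 CPM with BIX-01294 and 74.4, 69.7 and 71.5 CPM with DMSO. The groups overlapped, and the log2 fold change of −0.09 had a 95% interval of −0.25 to 0.07 (adjusted p = 0.37 by edgeR). SOCS2 shares 277 exon bases with SOCS2-AS1, an antisense RNA of only 32 to 51 raw counts per library.

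SOCS1, at chr16:11254417-11256204 (minus strand), had few reads. It was counted at 2.19, 1.94 and 3.37 CPM with BIX-01294 and at 1.98, 1.93 and 2.37 CPM with DMSO, from 33 to 57 and 33 to 40 raw counts. Treated replicate 3 was the highest library, and the groups overlapped. On the log2 scale the difference was 0.26 (standard error 0.27, 95% interval −0.32 to 0.83, adjusted p = 0.488 by edgeR). Without BIX replicate 3 the estimate turned to −0.01.

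SOCS3, at chr17:78356778-78360077 (minus strand), had raw counts of 1, 1 and 6 with BIX-01294 and of 3, 3 and 2 with DMSO. All but 1 library were at or under the floor of 3 counts, and no fold change is given.

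**Figure D2:**
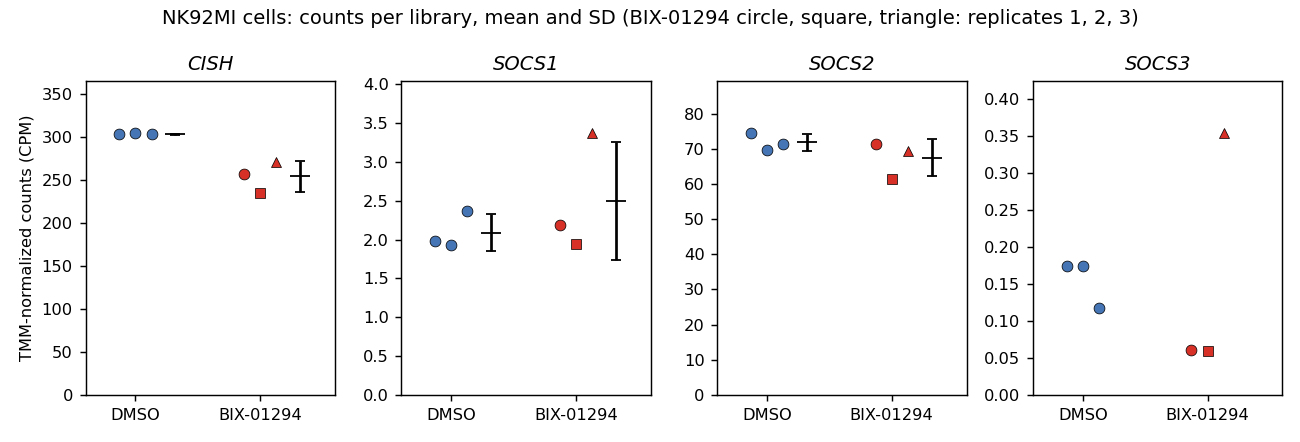
TMM-normalized counts (CPM, linear axes from 0) of the 4 human members in each DMSO and BIX-01294 library of NK92MI cells, with the group mean and SD (n = 3) except for SOCS3, whose libraries held 1 to 6 counts. All BIX-01294 points of CISH lie below the DMSO points at 303 to 304 CPM, and the other members overlap.

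Per length, the order of the members in NK92MI cells differed from that in the spleen. CISH was first at 50.3 ± 3.56 CPM per kb (SD, n = 3) with BIX-01294 and 59.9 ± 0.142 with DMSO, SOCS2 came to 10.4 ± 0.803 and 11.1 ± 0.365, SOCS1 to 1.4 ± 0.425 and 1.17 ± 0.134, and SOCS3 to 0.0578 and 0.0571 CPM per kb. No neighbours in this order overlapped in either group. CISH alone made up 80.6% to 81.4% of the summed level with BIX-01294 and 82.5% to 83.5% with DMSO. In mouse NK cells the corresponding share of Cish was at most 10.9%, in cells of another species and source and with lengths from another annotation. The summed exons were 5056 bases for CISH and 1788 for SOCS1, against 6419 and 2908 in mouse. The order and the shares depend on these lengths here too.

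None of the other family members was called in either comparison. Socs4, Socs5, Socs6 and Socs7, whose proteins also carry an SH2 domain and a SOCS box, had log2 fold changes of 0.15, 0.18, 0.16 and 0.39 in KO NK cells. Socs7 came nearest, at an adjusted p of 0.0578 by edgeR. In NK92MI cells SOCS4 (0.06) and SOCS7 (−0.07) were not called, and SOCS6 was not analysed here. SOCS5 was at 46.2, 55.8 and 43.8 CPM with BIX-01294 and 37.0, 32.9 and 35.3 CPM with DMSO. Every treated library was higher, and its log2 fold change of 0.47 (adjusted p = 0.00195 by edgeR) fell just short of the limit on size.

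**Figure D3:**
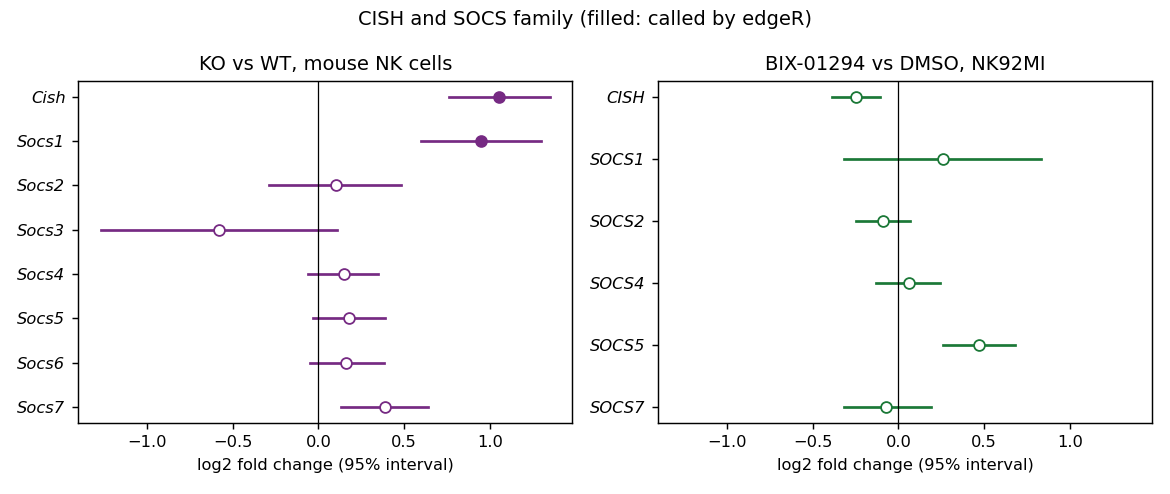
Log2 fold changes of the CISH and SOCS family in KO against WT mouse NK cells and in BIX-01294 against DMSO NK92MI cells, with 95% intervals as lines (3 libraries per group) and filled points for genes called by edgeR. Cish at 1.05 and Socs1 at 0.95 are the filled points, both in the mouse panel.

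The ubiquitin ligase that SOCS proteins recruit, made of elongins, cullins and RING proteins, showed no call in either comparison among 6 genes each. Its median log2 fold change was 0.04 in mouse and 0.00 in human, beside 0.01 and −0.01 over all genes.

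Ligands that act through JAKs were next in the loop. Ifng, the gene of IFN-γ, was at 39.3, 43.0 and 38.3 CPM in KO and 15.9, 25.4 and 16.2 CPM in WT. The groups did not overlap, and Ifng rose by 1.07 on the log2 scale (adjusted p = 0.0279 by edgeR). Csf2, which encodes the myeloid growth factor GM-CSF, was at 6.34, 10.1 and 5.68 CPM against 2.75, 3.84 and 2.23 CPM and rose by 1.33 (adjusted p = 0.04 by edgeR). These were the 2 calls among the 11 ligands tested, beside 2.82% of all genes called higher, with a median of 0.29. Il2 was near absent in the mouse libraries, at 10 to 28 raw counts, with a log2 fold change of 0.00 (adjusted p = 0.999 by edgeR).

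In NK92MI cells 3 of 6 ligands tested were called higher and none lower, beside 7.57% and 7.34% of all genes, with a median of 0.36. IFNG was at 259, 165 and 193 CPM with BIX-01294 and 31.1, 28.4 and 35.0 CPM with DMSO, a rise of 2.71 on the log2 scale (adjusted p = 1.9e-08 by edgeR). IL10, an anti-inflammatory cytokine, was at 10.6 to 12 CPM against 6.61 to 8.52 CPM (0.59, adjusted p = 0.00395 by edgeR). IL13, a type 2 cytokine, had 34 to 47 raw counts with BIX-01294 and 2 to 4 with DMSO. IL2, which these cells carry as an introduced gene, was counted at 31.9 to 38.7 CPM with BIX-01294 and 32.8 to 39.8 CPM with DMSO (log2 fold change 0.05, adjusted p = 0.766 by edgeR). SOCS1, which restrains IFN-γ signalling, was at 33 to 57 raw counts in the treated libraries, in which IFNG rose.

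Receptor chains for IL-2 and IL-15 were examined one by one. In mouse, Il2rb, the shared β chain, was at 2050, 3030 and 2960 CPM in KO and 1250, 2330 and 1250 CPM in WT, with overlap (0.74, adjusted p = 0.104 by edgeR). Il2rg, the common γ chain, was at 445, 487 and 423 CPM against 307, 378 and 293 CPM (0.47, adjusted p = 0.0473 by edgeR), short of the limit on size. Il2ra (0.63) and Il15ra (0.35) were not called. Among 17 receptor genes, 2 were called lower and none higher, beside 6.69% and 2.82% of all genes. Il6ra, the ligand-binding chain of the IL-6 receptor, was at 67.0, 42.9 and 48.5 CPM in KO and 90.6, 73.8 and 101 CPM in WT and fell by 0.75 (log2 fold change −0.75, adjusted p = 0.0457 by edgeR). Il6st, which encodes gp130, its signalling chain, was at 71.8, 48.8 and 48.0 CPM against 96.0, 90.3 and 92.8 CPM (−0.73, adjusted p = 0.0387 by edgeR). Macrophages also express both genes, and the macrophage marker sums given above moved with them. Their part in these values was not tested.

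In human, 5 of 14 receptor genes tested were called higher and 1 lower, with a median of 0.32, beside 7.57% and 7.34% of all genes. IL2RA, the high-affinity IL-2 receptor chain, was at 281, 275 and 283 CPM with BIX-01294 and 144, 149 and 160 CPM with DMSO (0.89, adjusted p = 3.11e-07 by edgeR). IFNAR1 (0.74, adjusted p = 2.04e-06), IL6ST (0.73, adjusted p = 0.000199), IL2RG (0.65, adjusted p = 0.00217) and IFNGR1 (0.55, adjusted p = 4.8e-05 by edgeR) also rose. The lower gene was IL10RB, at 0.411 to 0.886 CPM against 1.05 to 1.45 CPM (−1.06, adjusted p = 0.0439 by edgeR). IL2RB (−0.16) and IL15RA (0.28) were within the limit on size.

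Of the JAK kinases, Jak3, which couples to the common γ chain, was at 282, 390 and 360 CPM in KO and 203, 206 and 217 CPM in WT and rose by 0.72 (adjusted p = 0.0279 by edgeR). It was the 1 call among 4 mouse JAK genes, beside 2.82% of all genes called higher, and none of the 4 human ones was called. No mouse STAT gene was called among 7. In human, STAT5B, which transmits IL-2 signals and activates CISH, was at 126, 132 and 128 CPM with BIX-01294 and 189, 187 and 195 CPM with DMSO. All treated libraries were lower, and STAT5B fell by 0.57 (log2 fold change −0.57, adjusted p = 9.62e-06 by edgeR). Other inhibitors of the pathway gave 2 higher calls of 12 in mouse, beside 2.82% of all genes. They were Pias3 (0.53, adjusted p = 0.035 by edgeR), an inhibitor of STAT3, and Cblb (0.55, adjusted p = 0.0454 by edgeR), a ubiquitin ligase that restrains lymphocyte activation. In human, 1 of 11 was called lower, beside 7.34% of all genes, and this was PTPRC, which encodes the phosphatase CD45 (−0.51, adjusted p = 3.43e-05 by edgeR).

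Genes listed as STAT5-induced are, like CISH, known targets of that factor. In KO NK cells, 1 of 11 was called higher, beside 2.82% of all genes. It was Ccnd2, a cyclin of the G1 phase, at 297, 350 and 347 CPM against 225, 235 and 218 CPM (0.55, adjusted p = 0.0279 by edgeR), and the list median was 0.38. In NK92MI cells, 6 of 11 were called higher and none lower, against 7.57% of all genes called higher, and the median was 0.57. They were the survival gene MCL1 (0.91, adjusted p = 1.11e-07), the receptor gene IL2RA described above, the kinase gene PIM2 (0.85, adjusted p = 7.89e-07), CCND2 (0.58, adjusted p = 5.55e-06), BCL6 (0.86, adjusted p = 1.04e-05) and BCL2 (0.57, adjusted p = 2.4e-05 by edgeR). CISH, at −0.25 and short of the limit on size, was lower in the same libraries in which these 6 genes rose. It was not alone in this. Of the 11 listed genes, OSM (−0.34, adjusted p = 0.0171 by edgeR) and CCND3 (−0.24, adjusted p = 0.0141 by edgeR) also fell short of that limit and were lower. Judged by the adjusted p alone, 8 of the 11 rose and these 2 fell. BCL6 and BCL2 came after the 4 of smallest adjusted p that the naming rule takes, and are given to complete the count. OSM and CCND3 were not called and are given beside CISH.

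**Figure D4:**
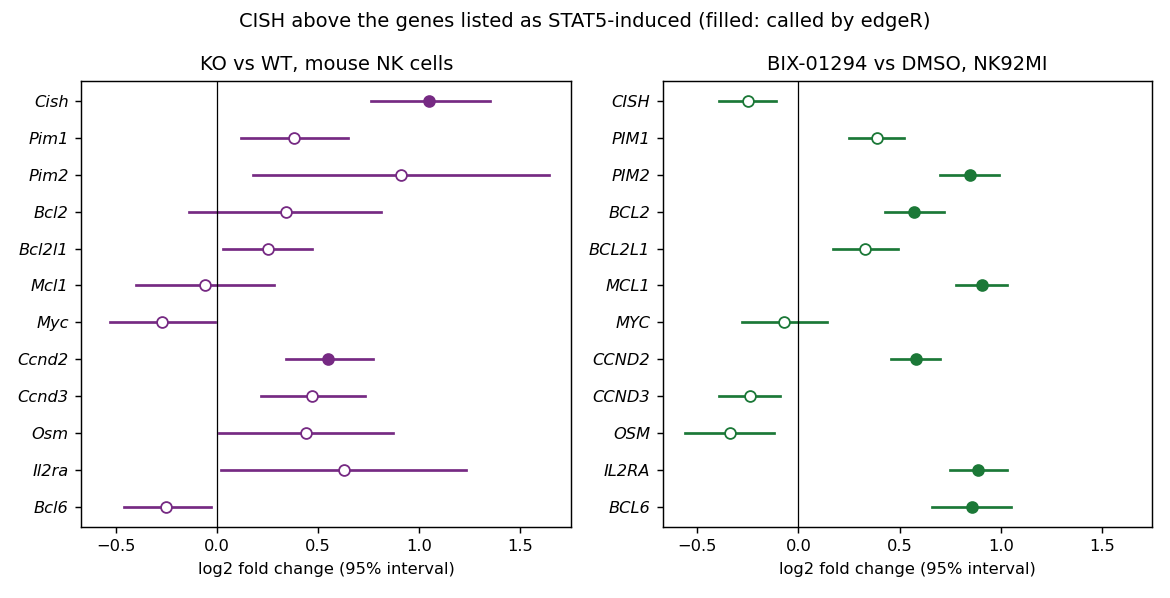
Log2 fold changes of CISH and of 11 genes listed as STAT5-induced, KO against WT in mouse and BIX-01294 against DMSO in human, with 95% intervals as lines (3 libraries per group) and filled points for genes called by edgeR. Cish and Ccnd2 are filled in mouse. In human, CISH lies at −0.25, 6 of the 11 are filled to the right of 0, and 3 of the 11 lie to the left of 0, none of them filled.

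Genes induced by STAT3 or by IFN-γ gave mixed results. No STAT3-induced gene of 7 tested was called in mouse (median −0.05). In human, 3 of 8 were called higher and 1 lower, beside 7.57% and 7.34% of all genes. The higher ones were JUNB (1.35, adjusted p = 2.04e-06 by edgeR), ICOS (0.68, adjusted p = 3.73e-06 by edgeR) and IL10, and the lower one was FOS (−0.72, adjusted p = 0.0206 by edgeR). Of 11 genes induced by IFN-γ in mouse, 2 were called higher and 1 lower, beside 2.82% and 6.69% of all genes. Irf1 (0.53, adjusted p = 0.0324 by edgeR) and Nlrc5 (0.58, adjusted p = 0.0473 by edgeR), activators of MHC class I genes among others, rose, and Ciita, the master regulator of MHC class II genes, fell by 1.10 (−1.10, adjusted p = 0.035 by edgeR). Ciita is also a gene of B cells and macrophages, whose markers moved the same way, and their part in its value was not tested. In human, TAP1, a peptide transporter of MHC class I loading, rose (0.64, adjusted p = 7.56e-06 by edgeR), as did the chemokine gene CXCL10, at 2.60 to 4.44 CPM against 0.533 to 0.815 CPM (2.28, adjusted p = 0.000134 by edgeR), and IRF8 fell by 0.57 (−0.57, adjusted p = 0.000148 by edgeR).

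The genes closest to each member over the 6 libraries of a species were found by the root mean square difference of their log2 CPM, each centred on its own mean, among 11955 mouse and 11684 human genes. Smaller values mean a closer match. Cish was nearest to Klrg1 (0.112) and Ifit1bl1 (0.147), and Socs1 to Hopx (0.032) and again Klrg1 (0.105). Socs2 was nearest to Slco3a1 (0.068) and Senp8 (0.071), and Socs3 to Cd300lf (0.138) and Slamf1 (0.149). In human, CISH was nearest to PABPC4 (0.015) and DUSP6 (0.016), SOCS2 to ZDHHC6 (0.023) and TBPL1 (0.024), and SOCS1 to the unnamed ENSG00000261222 (0.053) and AKAP1-DT (0.101). With 6 libraries, many genes can lie this close, and the match describes these libraries only.

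**Figure D5:**
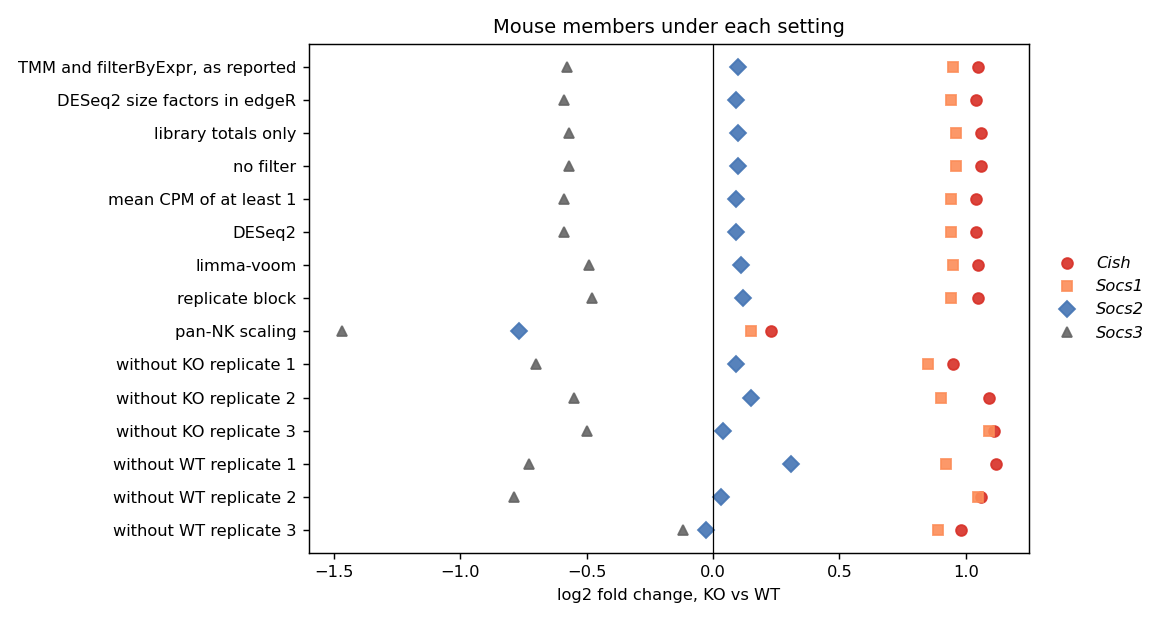
Log2 fold changes (KO against WT) of the 4 mouse members under each way of processing, including 6 fits with 1 library left out. Cish and Socs1 stay to the right of Socs2 and Socs3 in all of them, and scaling to the pan-NK genes shifts all 4 to the left, to 0.23, 0.15, −0.77 and −1.47.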

How the data were processed

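The study's methods and, per the labels, the processing notes name fastp 0.23.4 for trimming, STAR 2.7.11b for alignment with up to 2 mismatches, and HTSeq 2.0.3 for counting. Builds were GRCm38/mm10 for mouse and GRCh38/hg38 for human. The authors deposited raw, whole-number counts for each gene symbol. The annotation release and strand setting are not given in the sources used here. The mouse table lists 22021 genes, and 18304 are listed for human. Repeated symbols (41 and 15) were kept apart.

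Each species was fitted with edgeR 4.0.16 in R 4.3.3 (TMM, filterByExpr, quasi-likelihood test), and the call required both an adjusted p below 0.05 and a change beyond 0.5 on the log2 scale. The study used DESeq2 at 0.01, at which edgeR calls no mouse gene. The members, the lists and these limits were chosen with earlier results of these data known. Named are all members, up to 4 called genes per list and direction, and the IL-2 and IL-15 receptor chains, IFNG, IL2, EHMT2 and EZH2. Lists are described by counts and medians without a test. Alternatives were DESeq2 1.42.0, limma-voom (limma 3.58.1), other normalizations, filters and limits, the replicate block and each library left out. On simulated data with 200 changed genes, edgeR recovered 95% of 4-fold and 80% of 2-fold changes with 18 false calls for KO against WT (13189 genes), and 100% and 90% with 3 false calls for BIX-01294 against DMSO (12727 genes).

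The human control columns have no replicate number and were used as a group. No 2 libraries of a group agreed within sampling noise (chi-square per degree of freedom of at least 2.82). Gene positions come from GENCODE annotations of the same builds, which may not be the release the authors used. Lengths are the summed exons of all annotated transcripts of a gene. The floor of 3 counts covers counting error only. Results of some listed genes are not reported here.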

Additional observations from a re-analysis of the deposited data

Results flagged for a closer look

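CISH differed in opposite directions in the mouse and human experiments. Its log2 fold change was 1.05 in KO against WT mouse NK cells, with 3 of 3 KO libraries above all WT libraries. That separation held for 19.1% of mouse genes tested. In NK92MI cells given BIX-01294 it was −0.25, with 3 of 3 treated libraries below all DMSO libraries. There 23.9% of genes tested lay below in this way, and CISH was not called, being short of the limit on size. The difference between the 2 experiments was not tested, since the tables come from different species, cells and interventions. The mouse libraries also differed in their pan-NK content, at 0.561% to 0.949% of counts in WT and 1.09% to 1.24% in KO. Scaled to the pan-NK genes, Cish was at 0.23 (adjusted p = 0.489 by edgeR). Within each genotype Cish was highest in the library with the lowest share, and the part of this content in the value was not tested.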

How the results depend on the processing

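Of the alternatives to the mouse members' values, 54 kept direction and side of the limits, 11 lost the call, 1 gained it in the same direction and 2 reversed; of the human ones 43 kept both, 1 gained the call and 1 reversed. At the study's limit of 0.01 on the adjusted p, edgeR called 0 genes higher and 0 lower (2080 and 2639 at an unadjusted p under 0.05), so Cish at 1.05 and Socs1 at 0.95 were no longer called. DESeq2 called 565 higher and 1644 lower, against 372 and 882 by edgeR, and 396 and 1099 at the study's limits, a setting chosen after seeing the data, with Cish (adjusted p = 1.94e-09) and Socs1 (adjusted p = 2.47e-06) among them. Without a limit on size, 585 mouse genes were higher, and 2348 human genes were higher and 2344 lower, CISH at −0.25 included. Scaling to the pan-NK genes gave 35 higher and 8818 lower, with Cish at 0.23, Socs1 at 0.15, Socs2 reversed to −0.77 and Socs3 at −1.47, the last 2 both called lower. With a library left out, Cish ranged from 0.95 to 1.12, Socs1 from 0.85 to 1.09, Socs2 from −0.03 (without WT replicate 3) to 0.31, and Socs3 from −0.79 to −0.12. Mouse calls ranged from 0 (without KO replicate 2 or 3) to 905 higher and from 0 to 1835 lower (without WT replicate 2), with 6 and 8 without WT replicate 3 and 35 and 64 without WT replicate 1. In human, SOCS1 ranged from −0.01 to 0.42, CISH from −0.29 to −0.19 and SOCS2 from −0.13 to −0.02. The causes were not tested.

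Whether the replicate numbers pair the mouse samples is not stated, and 3 libraries per group cannot decide it. Deviations of same-numbered KO and WT libraries correlated at 0.28, 0.35 and −0.19. KO replicate 1 correlated equally with WT replicates 1 and 3 (0.28), and KO replicates 2 (0.35) and 3 (0.2) both correlated best with WT replicate 2. With the replicate block, edgeR called 573 genes higher and 1572 lower, with Cish at 1.05 (adjusted p = 0.00333) and Socs1 at 0.94 (adjusted p = 0.00441), and it changed no call of a member. For the human comparison, no paired analysis was possible because its control columns carry no replicate number. SOCS1 and SOCS3 in NK92MI cells rest on 33 to 57 and 1 to 6 counts per library.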
